A study of Sus scrofa with 12 samples.

Results

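Extracellular vesicles (EVs) are membrane-bound particles that cells release into the medium, and their cargo includes microRNAs (miRNAs). A miRNA is a short RNA cut from a hairpin precursor and carried by an Argonaute protein, which it guides to messenger RNAs by pairing of its seed, the stretch near its 5′ end, so that the target is repressed. Mesenchymal stromal cells (MSCs) are studied for tissue repair, and part of their action on other cells has been ascribed to such vesicles. Described here are the 3 EV small-RNA libraries, taken by their labels and column names, out of 12 libraries in the series. The 3 small-RNA libraries of the parent MSCs served as the background measured in the same way, and the 6 mRNA libraries were not used here.

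Abdominal fat of 3 female domestic pigs, aged 3 months, gave the MSCs, which were grown in medium with platelet lysate and used at passage 3. The labels give no genotype or treatment. The EVs of each pig came from the supernatant of its own MSCs by ultracentrifugation, a step that collects vesicles of several sizes together with whatever else sediments. EV and MSC libraries carry the same replicate number when their labels name the same pig, so each group had 3 libraries and each pig gave 1 EV and 1 MSC library. The column names of EV replicate 3 and MSC replicate 3 differ in style from those of the other small-RNA libraries. They also hold an identifier that is not the pig label. The paper does not say whether these libraries were prepared or sequenced separately. Such a difference would coincide with the pig and was not tested. In such bulk libraries, fewer vesicles of a kind and less RNA per vesicle cannot be told apart.

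The deposited table listed 326 mature miRNAs in 385 entries, and each mature miRNA was read from its entry with the largest total. Counted in this way, EV replicates 1, 2 and 3 held 604818, 17100 and 15210 counts, and the MSC libraries held from 9195012 to 13751342. Values below are shares, the percentage of these counts that fell on a miRNA. A count of 0 allows up to 3 counts, which is a share of up to 4.96e-04% in EV replicate 1, 0.0175% in EV replicate 2 and 0.0197% in EV replicate 3. Intervals are 95% Wilson intervals. Molecular identifiers are not mentioned in the paper, so both the intervals and these limits cover counting error only.

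The labels were checked against miRNAs typical of mesenchymal and of other cell types. Of 21 listed arms of mesenchymal miRNAs, 19 had a count in some EV library and 9 had counts in all 3, and together they took 19.5%, 15.9% and 10.3% of EV replicates 1, 2 and 3 and 22.5%, 16.8% and 12.5% of the MSC libraries. In EV replicate 3, miR-100 alone gave 8.05% of the counts, miR-143-3p gave 0.145%, miR-145-5p 0.0197% and miR-199a-3p 0.0394%, and miR-214 and miR-218 had 0 counts. Scarce members were not particular to EV replicate 3. miR-214 had 3 and 2 counts in EV replicates 1 and 2, against 0.0466% to 0.235% of the MSC libraries. EV replicate 2 had 1 count of miR-145-5p, 4 of miR-199a-5p and 0 of miR-152. These sums count separately miR-199a-3p and miR-199b-3p, miR-218 and miR-218-5p, and miR-196b and miR-196b-5p, although the EV counts within each pair of names were identical. Those miRNAs of other cell types that the table lists were sparse. Platelet and myeloid miR-223 had no entry, and of 7 epithelial miRNAs only miR-205 and miR-429 had one, so the missing ones could not be assessed. Erythroid miR-451 and miR-486 together had 28, 0 and 46 counts in EV replicates 1, 2 and 3, of which miR-486 gave all but 1. Myeloid and platelet miR-142 had 1 count over the 3 EV libraries, endothelial miR-126 had 23 and epithelial miR-205 had 27, each of them in EV replicate 3 only. Neuronal miR-128, miR-9 and miR-138 summed to 0.0354%, 0% and 0.421% of the counts. Lymphoid miR-150 and miR-155 summed to 173, 0 and 19 counts, muscle miRNAs to 81, 0 and 0 and hepatic miR-122 to 2, 0 and 8. EV replicate 2 thus held 0 counts of each of these lists, while EV replicate 3 had counts in all but the muscle list, and their part in the differences between libraries was not tested.

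The cargo was concentrated in few miRNAs in EV replicates 1 and 2 and was more even in EV replicate 3. The 10 most abundant miRNAs of each library took 81.4%, 81.3% and 57.9% of EV replicates 1, 2 and 3, a mean of 73.5% ± 13.6 (SD, n = 3). In the MSC libraries the same measure gave 70.2%, 70.1% and 92.2%, a mean of 77.5% ± 12.7 (SD, n = 3). The ranges of both groups overlapped, and a two-sided exact permutation test gave p = 0.800, where 0.1 is the smallest value that 3 libraries against 3 allow. To reach 50% of the counts took 3, 4 and 7 miRNAs in EV replicates 1, 2 and 3. The effective number of miRNAs, the exponential of the Shannon entropy of the shares, was 15.9, 16.9 and 40.5 in the EV libraries and 22.2, 20.1 and 3.86 in the MSC libraries. The pig with the most even EV library therefore had the least even MSC library, in which miR-21 alone took 74.4% of the counts.

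EV replicates 1 and 2 had the same 10 leading miRNAs, in a different order. EV replicate 3 shared 4 of its 10 with each of them, and the 4 were miR-21, let-7i, miR-100 and let-7a. The other 6 leaders of EV replicate 3 were miR-92a, miR-30d, miR-423-3p, miR-26a, let-7g and miR-191. Ranked by the mean share over the 3 EV libraries, the 20 leading miRNAs took 89.0%, 86.9% and 66.0% of EV replicates 1, 2 and 3, and 13 of them also ranked among the 20 leading miRNAs of the MSCs.

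**Figure D1:**
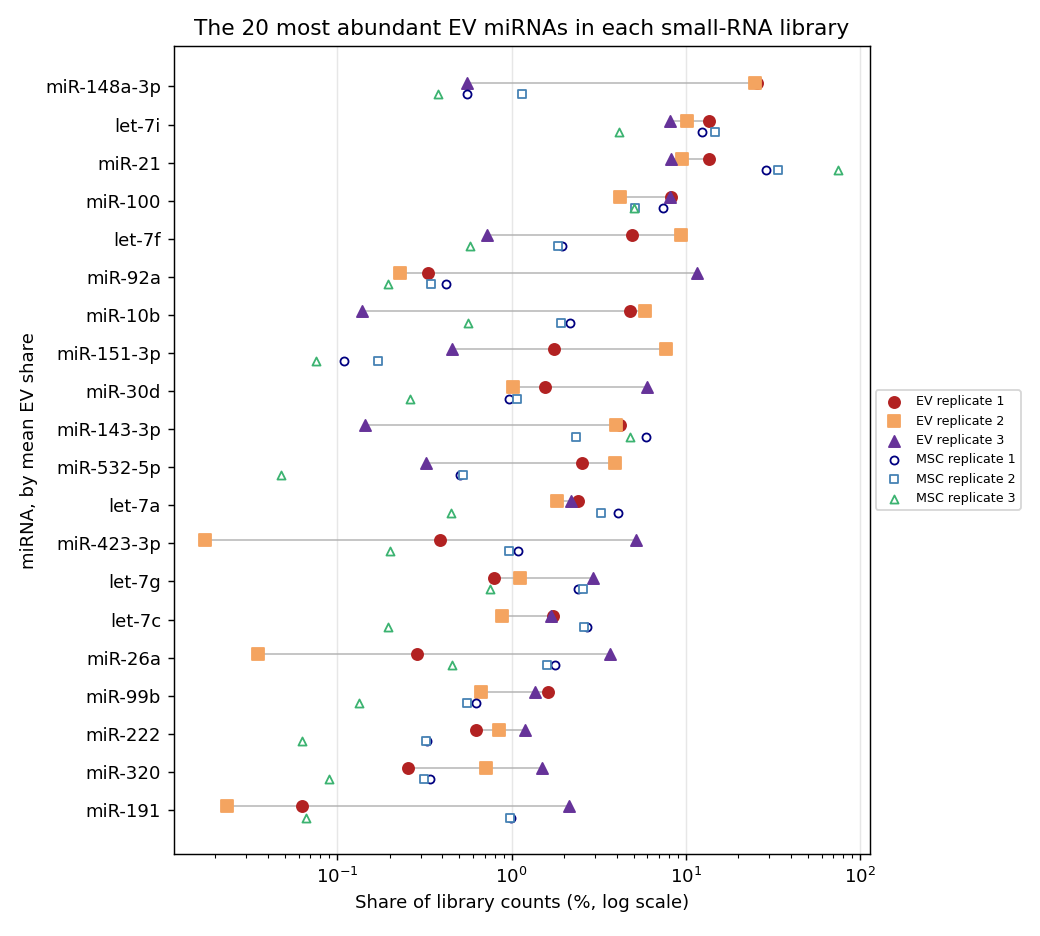
Share of library counts (percent, log scale) of the 20 miRNAs with the highest mean share in EVs, with filled symbols for the 3 EV libraries, open symbols for the 3 MSC libraries and a grey line from the lowest to the highest EV library. let-7a, let-7i, miR-21 and miR-100 have short lines, while miR-148a-3p spans 0.552% to 25.4%, miR-92a 0.228% to 11.5% and miR-423-3p 0.0175% to 5.15%.

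The most abundant EV miRNA by mean share was miR-148a-3p, which belongs to the miR-148 and miR-152 family and is known to repress the DNA methyltransferase DNMT1. It had 153815, 4272 and 84 counts in EV replicates 1, 2 and 3. Its share was 25.4% (95% interval 25.3% to 25.5%) in EV replicate 1, 25% (24.3% to 25.6%) in EV replicate 2 and 0.552% (0.446% to 0.683%) in EV replicate 3. It led both former libraries and ranked 34 in the latter, and in the MSC libraries it took 0.555%, 1.15% and 0.376%. Each EV library was above the MSC library of its own pig, by 45.8, 21.8 and 1.47 times in share, although EV replicate 3 lay below the highest MSC share.

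let-7i and miR-21 followed at nearly equal levels. let-7 miRNAs restrain proliferation and mark differentiated cells, and let-7i took 13.6%, 10.1% and 8.12% of EV replicates 1, 2 and 3 (mean 10.6% ± 2.77, SD, n = 3). In the MSC libraries let-7i took 12.3%, 14.6% and 4.14%, so the groups overlapped. miR-21, a growth-associated miRNA that represses PDCD4, took 13.6%, 9.50% and 8.19% of the EV libraries (mean 10.4% ± 2.84, SD, n = 3). In the MSC libraries miR-21 took 28.8%, 33.5% and 74.4%, and each EV library lay below each MSC library. miR-100, of the ancient miR-99 family that represses mTOR, took 8.25%, 4.21% and 8.05% in EVs and 7.41%, 5.11% and 5.00% in MSCs.

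Agreement among the EV libraries was assessed miRNA by miRNA. A two-sided Fisher exact test on the counts of each pair of libraries, with Benjamini-Hochberg adjustment within the pair, called a miRNA when its adjusted p-value was under 0.05 and its shares differed by more than 2-fold. Only miRNAs with at least 10 counts in the pair were tested. The test compares libraries and not conditions, and it asks whether a difference exceeds counting error. Between EV replicates 1 and 2, 55 of 113 miRNAs were called (48.7%), 19 higher in EV replicate 2 (16.8%) and 36 higher in EV replicate 1 (31.9%). Between EV replicates 1 and 3, 91 of 137 were called (66.4%), 70 higher in EV replicate 3 (51.1%) and 21 higher in EV replicate 1 (15.3%). Between EV replicates 2 and 3, 92 of 104 were called (88.5%), 69 higher in EV replicate 3 (66.3%) and 23 higher in EV replicate 2 (22.1%). Differences beyond counting error were thus common in each pair. The percentage called was highest where EV replicate 3 was compared, but the pairs differed in power. The minimum of 10 counts was summed over the pair, so a miRNA could pass on the much deeper EV replicate 1 alone. Against 0 counts in EV replicate 2 it could then stay uncalled, as miR-1 did. Between EV replicates 2 and 3, 10 counts against 0 sufficed for miR-331-3p. The percentages alone therefore do not rank the pairs. Of the 20 leading miRNAs, 5, 13 and 14 were called in these 3 pairs.

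**Figure D2:**
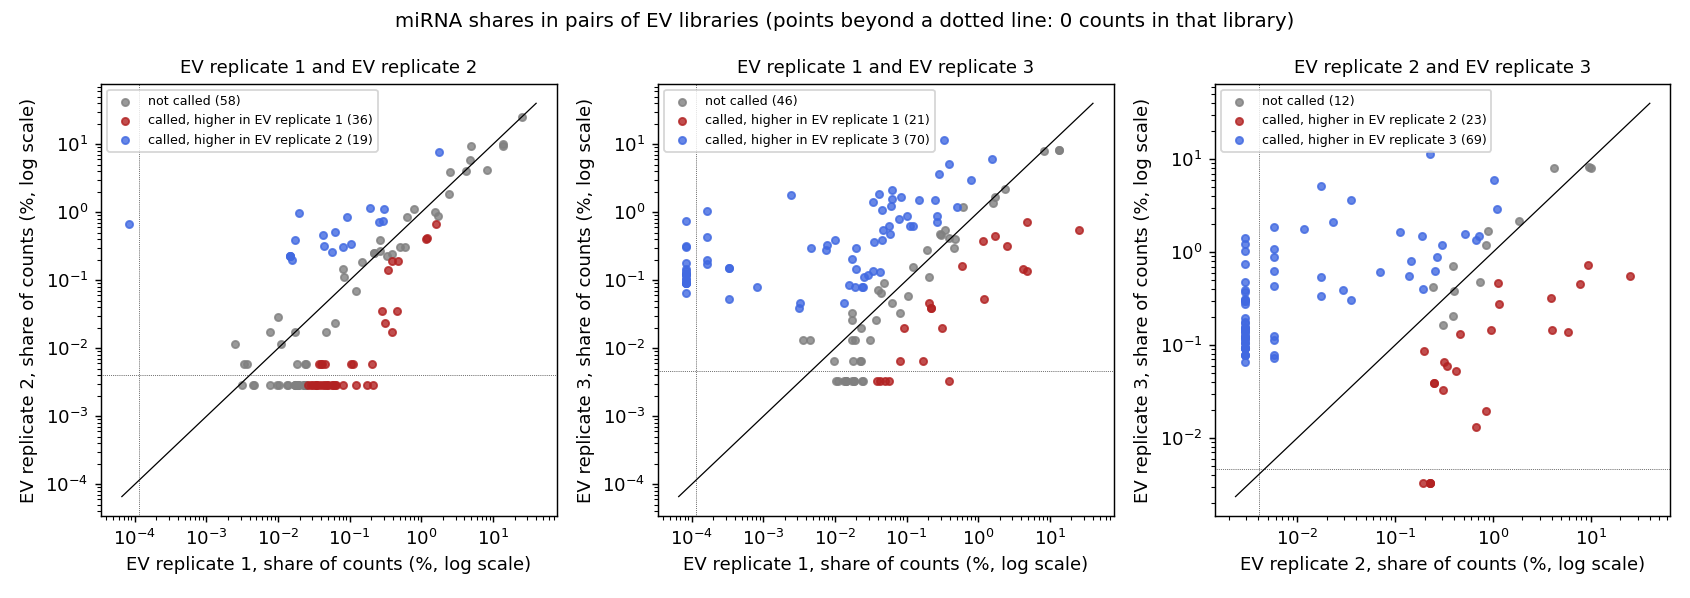
Shares of single miRNAs (percent, log scales) in each pair of EV libraries, for miRNAs with at least 10 counts in the pair, with the diagonal marking equal shares and points outside a dotted line at 0 counts in that library. Coloured points were called by the Fisher exact test: 55 of 113, 91 of 137 and 92 of 104 in the panels from left to right.

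Of the 79 miRNAs tested in all 3 pairs, 7 were called in none: let-7a, let-7c, let-7i, miR-21, miR-100, miR-140-3p and miR-222. The highest of their 3 EV shares exceeded the lowest by 1.31 times for let-7a to 1.96 times for miR-100. let-7a took 2.40%, 1.83% and 2.18% of EV replicates 1, 2 and 3, the closest agreement of the 7. miR-222, which represses the cell-cycle inhibitor CDKN1B, took 0.621%, 0.848% and 1.19%. miR-140-3p, known from cartilage, took 0.394%, 0.246% and 0.421%. These 7 miRNAs were not identical between libraries, since most of their pairwise differences also had adjusted p-values under 0.05 in the Fisher exact test and stayed within a 2-fold ratio.

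Of the 79, 24 were called in all 3 pairs. The commonest pattern in which 1 library stood apart, in 20 of the 79, was EV replicate 3 above both others, which were themselves not called apart. EV replicate 3 was below both others in 7. EV replicate 2 stood apart upward in 8 and downward in 8, and EV replicate 1 upward in 1 and downward in 1. Another 3 had other patterns. Libraries not called apart need not agree, since few counts can leave a difference uncalled. miR-181a, with 15 and 2 counts in EV replicates 1 and 2, differed 4.72-fold in share and was not called (adjusted p = 0.109, Fisher exact test).

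miR-92a was the miRNA that led EV replicate 3. It is processed from the miR-17 cluster, a proliferation-associated group driven by MYC, and it had 1998, 39 and 1744 counts. Its share was 0.330%, 0.228% (95% interval 0.167% to 0.312%) and 11.5% (11.0% to 12.0%) in EV replicates 1, 2 and 3, against 0.196% to 0.421% in the MSC libraries. EV replicate 3 alone was outside the MSC range on the high side. miR-30d, of a family tied to differentiation, took 1.55%, 1.02% and 6.00%, and miR-26a, a repressor of EZH2, took 0.285%, 0.0351% and 3.67%. miR-423-3p rested on 3 counts in EV replicate 2, a share of 0.0175% (0.00597% to 0.0516%), against 0.389% in EV replicate 1 and 5.15% in EV replicate 3. miR-191 had 377, 4 and 324 counts, and its share in EV replicate 3 was 34.2 times that in EV replicate 1 and 91.1 times that in EV replicate 2.

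Some miRNAs counted well in EV replicate 3 were at or near 0 in the much deeper EV replicate 1. miR-17-5p had 1, 0 and 156 counts in EV replicates 1, 2 and 3, and its share in EV replicate 3 was 6203 times that in EV replicate 1, a ratio that rests on 1 count in the latter (adjusted p = 6.70e-249 from the Fisher exact test). miR-181a and miR-181b, which tune lymphocyte signalling and occur in many tissues, had 15, 2 and 272 counts and 1, 1 and 66 counts. miR-1285 had 0, 0 and 113 counts. Its share in EV replicate 3 was 1498 times the limit of 3 counts in EV replicate 1, a limit that covers counting error only. miR-224 had 0, 0 and 48 counts, and its share in EV replicate 3 was 636 times the same limit. In the MSC libraries all of these had at least 82 counts, but these were small shares of deep libraries, the 82 counts of miR-224 being 8.92e-04%. miR-17-5p took 0.0266% to 0.0498% and miR-1285 took 0.00165% to 0.00863% of the MSC libraries, against 1.03% and 0.743% of EV replicate 3.

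In the other direction, miR-10b, encoded within the HOXD gene cluster, had 29052, 990 and 21 counts and took 4.80%, 5.79% and 0.138% of EV replicates 1, 2 and 3. miR-143-3p, a smooth-muscle and stromal miRNA, took 4.18%, 3.98% and 0.145%, against 2.34% to 5.89% in the MSC libraries. miR-199b-5p took 1.21%, 0.415% and 0.0526%, and miR-7134-3p had 2390, 33 and 0 counts. For these 4 miRNAs EV replicate 3 was the lowest, and it was called lower than each of the others.

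Other miRNAs set EV replicate 2 apart. miR-493-3p and miR-127 are both encoded in the imprinted DLK1-DIO3 region, which is active in stromal and embryonic tissue. miR-493-3p had 0, 115 and 2 counts in EV replicates 1, 2 and 3. Its share in EV replicate 2 was 1356 times the limit for counting error in EV replicate 1 (adjusted p = 1.27e-178, Fisher exact test). miR-127 had 119, 165 and 22 counts, shares of 0.0197%, 0.965% and 0.145%, and EV replicate 2 exceeded EV replicate 1 by 49.0 times. miR-186 was 22.0 times higher in EV replicate 2 than in EV replicate 1. miR-218, miR-218-5p and miR-218b had 88, 39 and 0 counts each, were 15.7 times higher in EV replicate 2 than in EV replicate 1, and cannot be separated because their counts were identical. miR-129b, with 559, 146 and 3 counts, was 43.3 times higher in EV replicate 2 than in EV replicate 3. Lower in EV replicate 2 than in EV replicate 1 were miR-423-3p by 22.2 times, miR-199a-5p by 13.3 times, miR-23b by 13.1 times and miR-7 by 35.2 times, on 3, 4, 6 and 1 counts in EV replicate 2. miR-221-5p had 1262, 0 and 7 counts, and its share in EV replicate 1 was 11.9 times the limit for counting error in EV replicate 2.

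Across miRNAs, the logarithms of the shares, taken as log2(CPM + 10), where CPM is the count scaled to a library total of 1000000, correlated at r = 0.70 between EV replicates 1 and 2 (Spearman 0.63, n = 130 miRNAs). They correlated at 0.50 between EV replicates 1 and 3 (Spearman 0.50, n = 204) and at 0.47 between EV replicates 2 and 3 (Spearman 0.48, n = 192). MSC replicates 1 and 2 correlated at 0.99, and MSC replicate 3 correlated with them at 0.93 and 0.92. EV replicates 1, 2 and 3 correlated with the MSC library of their own pig at 0.79, 0.72 and 0.65. For EV replicates 1 and 3 the MSC libraries of the other pigs gave higher values, at 0.81 and 0.80 and at 0.69 each. Over the 67 miRNAs counted in all 3 EV libraries, the correlation was 0.77 between EV replicates 1 and 2, 0.44 between 1 and 3 and 0.30 between 2 and 3, and 0.56, 0.35 and 0.40 for EV replicates 1, 2 and 3 with their own MSC libraries. miRNAs are not independent replicates, and these values are given as a description, over different sets of miRNAs. Over the same 67, the median miRNA differed 2.66-fold between EV replicates 1 and 2, 5.06-fold between 1 and 3 and 5.87-fold between 2 and 3, against 1.18-fold between MSC replicates 1 and 2 and 3.93-fold and 3.73-fold between these and MSC replicate 3. The common biological coefficient of variation estimated by edgeR was 1.82 over the 3 EV libraries and 0.593 over the 3 MSC libraries. Without EV replicate 3 the former was 1.23, and without MSC replicate 3 the latter was 0.291.

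A count in some EV library was found for 204 miRNAs. Of these, 67 had a count in all 3, 51 in exactly 2 and 86 in exactly 1. The 67 took 97.9%, 98.4% and 88.2% of EV replicates 1, 2 and 3, and each of them also had counts in every MSC library. At a minimum of 10 counts in each EV library, 39 remained of the 67. Of the 86, 74 were counted in EV replicate 3 only, 12 in EV replicate 1 only and 0 in EV replicate 2 only. The 74 took 3.93% of EV replicate 3, with a median of 3 counts and a highest of 113 for miR-1285. Among them were miR-210, a hypoxia-induced miRNA with 47 counts, miR-205 with 27 and miR-126-3p with 22, which were chosen after their values were seen. The 12 seen in EV replicate 1 only had a median of 127 counts and a highest of 340.

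The number of miRNAs counted did not follow depth. EV replicates 1, 2 and 3 held 126, 79 and 184 miRNAs, so the shallowest library held the most and the deepest, with 604818 counts, held fewer. At the depth of the shallowest library, 15210 counts, exact rarefaction gave 106.04, 77.08 and 184.00 miRNAs in the EV libraries and 158.12, 157.36 and 119.48 in the MSC libraries. The groups overlapped (two-sided exact permutation test, p = 0.600). EV replicates 1 and 2 lay below every MSC library at this depth and EV replicate 3 above.

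**Figure D3:**
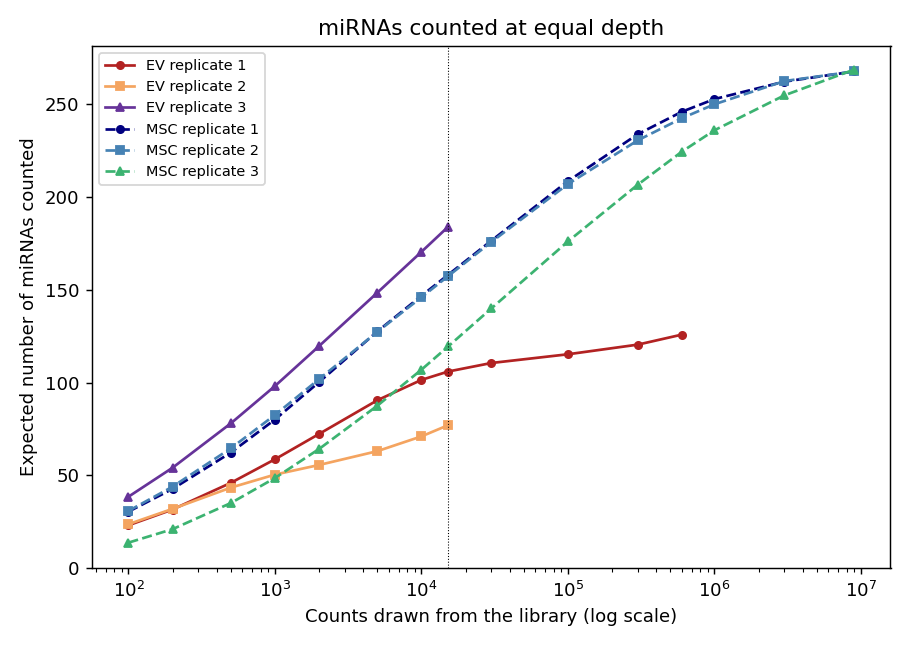
Expected number of miRNAs counted when fewer counts are drawn from a library (log scale of counts drawn), with solid lines for EV and dashed lines for MSC libraries and a dotted line at 15210 counts. The curve of EV replicate 1 flattens and ends at 126 miRNAs, and that of EV replicate 3 lies above all others and ends at 184.

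EV replicate 1 also held few miRNAs at low counts. Of its 126 miRNAs, 14 had 1 to 9 counts, 18 had 10 to 99 and 94 had 100 or more. The shares of the MSC library of the same pig, drawn at the depth of EV replicate 1, would give 63.1, 63.3 and 119 miRNAs in these 3 ranges. EV replicate 3 was above its MSC library in each range, with 91, 63 and 30 miRNAs against 75.2, 38.2 and 6.09. In that MSC library miR-21 took 74.4% of the counts, which leaves small shares for all other miRNAs. EV replicate 2 had 29, 28 and 22 against 77.0, 57.1 and 26.5. Of 119 miRNAs that would reach 100 counts or more in EV replicate 1 at their MSC share, 26 had 3 or fewer. These included miR-214, a fibroblast miRNA with 0.194% of MSC replicate 1 and 3 counts in EV replicate 1, and miR-193a-5p, with 0.125% and 0 counts.

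Families of related miRNAs were summed within each library. Members of a family differ by few bases and reads can be shared between them, so single let-7 values are less certain than their sum. The let-7 family took 23.7%, 24.5% and 16.7% of EV replicates 1, 2 and 3 and 25%, 26.1% and 6.32% of the MSC libraries. All 9 of its listed arms had counts in EVs, and their make-up changed more than the sum did, with let-7f at 4.87%, 9.35% and 0.723% and let-7g at 0.794%, 1.11% and 2.94%. The miR-10, miR-99 and miR-125 group was also steady, at 15.3%, 11.6% and 14.0%. Within it, miR-125a went from 1 count in EV replicate 2 to 282 counts in EV replicate 3, whose share was 317 times higher.

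Other groups separated EV replicate 3 from EV replicates 1 and 2, though not always from the MSC libraries. The miR-17 group took 0.410%, 0.234% and 15.2% of EV replicates 1, 2 and 3, where miR-92a made up most of the last value. The miR-181 family took 0.00265%, 0.0175% and 2.32%, the miR-30 family 1.82%, 1.37% and 7.27%, and the miR-29 family, repressors of collagen genes, 0.00777%, 0.0175% and 0.342%. miR-103 and miR-107 together took 0.0617%, 0.00585% and 1.35%. In the MSC libraries the miR-29 family took 0.448%, 0.458% and 0.143%. EV replicate 3 thus lay within the MSC range for it, and EV replicates 1 and 2 below. The MSC range was 0.0247% to 0.270% for the miR-181 family and 0.0695% to 0.321% for miR-103 with miR-107. For both, EV replicates 1 and 2 lay below this range and EV replicate 3 above. EV replicate 3 was also above every MSC library for the miR-17 group and the miR-30 family. The miR-15 group, which restrains the cell cycle, had 1, 0 and 36 counts in all. It took 0.0113% to 0.0703% of the MSC libraries, with EV replicate 1 below this range and EV replicate 3, at 0.237%, above it. Among the EV libraries the miR-148 and miR-152 family moved the opposite way, at 26.7%, 25.4% and 1.1%. It took 0.472% to 1.76% of the MSC libraries, a range that held EV replicate 3 only. The miR-183 cluster, known from sensory organs, took 0.601%, 1.87% and 0.947% of the EV libraries and 0.110%, 0.186% and 0.00456% of the MSC libraries, with each EV library above each MSC library.

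**Figure D4:**
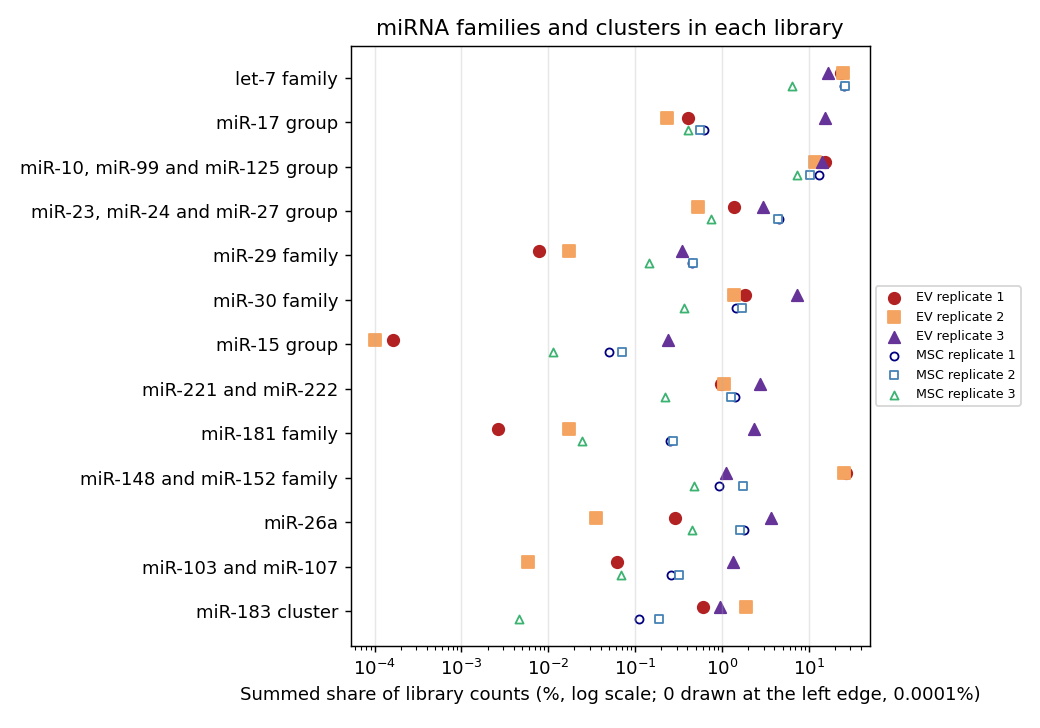
Summed share of library counts (percent, log scale) of 13 miRNA families and groups in the 3 EV libraries (filled) and the 3 MSC libraries (open), with a sum of 0 drawn at the left edge. The let-7 family and the miR-10, miR-99 and miR-125 group stay close together, while the miR-17 group runs from 0.234% to 15.2% and the miR-148 and miR-152 family from 1.1% to 26.7% among EV libraries.

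miRNAs cut from neighbouring precursors, which are usually transcribed together, were compared by the ratio of their counts within each library, in pairs chosen after the values were seen. miR-182 and miR-183 kept nearly the same ratio in all 6 libraries, at 1.04, 1.53 and 0.973 in EV replicates 1, 2 and 3 and 1.03, 1.43 and 1.16 in the MSC libraries. The ratio of miR-99b to miR-125a was 39.7, 114 and 0.734 in EVs and 1.11, 0.961 and 3.04 in MSCs. For miR-143-3p to miR-145-5p it was 178, 680 and 7.33 in EVs, the middle value resting on 1 count of miR-145-5p, and 15.7, 12.6 and 51.4 in MSCs. For miR-222 to miR-221-3p it was 4.18, 4.53 and 0.801 in EVs and 0.320, 0.365 and 0.429 in MSCs. In these 3 neighbourhoods EV replicates 1 and 2 departed from the MSC ratio in the same direction, and EV replicate 3 lay nearer to the MSC ratios in all 3. For miR-99b to let-7e the ratio was 13.3, 9.50 and 2.20 in EVs, and for miR-23a to miR-27a it was 34.5, 4.80 and 1.40. These pairs followed the same pattern, with EV replicates 1 and 2 above every MSC library. EV replicate 3 was the nearest EV library for both, and within the MSC range for miR-23a to miR-27a. Some neighbours differed from this pattern. For miR-23b to miR-27b-3p the ratio was 0.911, 0.115 and 0.256 in EVs and 0.163, 0.138 and 0.0588 in MSCs, so that EV replicate 2 and not EV replicate 3 lay within the MSC range. For miR-99a to let-7c, EV replicates 2 and 3, at 0.291 and 0.371, both lay within it.

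The arms of a precursor give a similar within-library ratio. A precursor yields a 5p and a 3p product, of which usually 1 is kept, and 14 of 87 precursors with both arms listed had at least 20 counts in each EV library. For mir-30e the 5p arm took 6.76%, 0% and 82.4% of the precursor's counts in EV replicates 1, 2 and 3 and 98.4%, 96.8% and 96.5% in the MSC libraries. The 634, 58 and 9 counts of miR-30e-3p thus outnumbered the 46 and 0 counts of miR-30e-5p in EV replicates 1 and 2 but not its 42 in EV replicate 3. For mir-423 the 5p arm took 40.5%, 93.9% and 14.8% in EVs and 13.7% to 20.6% in MSCs. For mir-221 it took 58.4%, 0% and 3.00% against 5.11% to 7.31%, and for mir-28 0%, 0% and 10.7% against 22.1% to 39.0%. For mir-140 it took 0%, 0% and 1.54% against 11.0% to 16.7%. Of these 5 precursors, chosen for the largest difference between EV and MSC means, EV replicate 3 lay within the MSC range for mir-423 and was the EV library nearest to it for the other 4. Among the other 9 precursors, EV replicate 3 was the EV library farthest from the MSC range for let-7d, where the 5p arm took 99.6%, 100% and 77.8% against 87.7% to 94.1%, and for mir-143. The 5p arms of mir-10a and mir-532 stayed at 96.1% or more in each EV library.

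**Figure D5:**
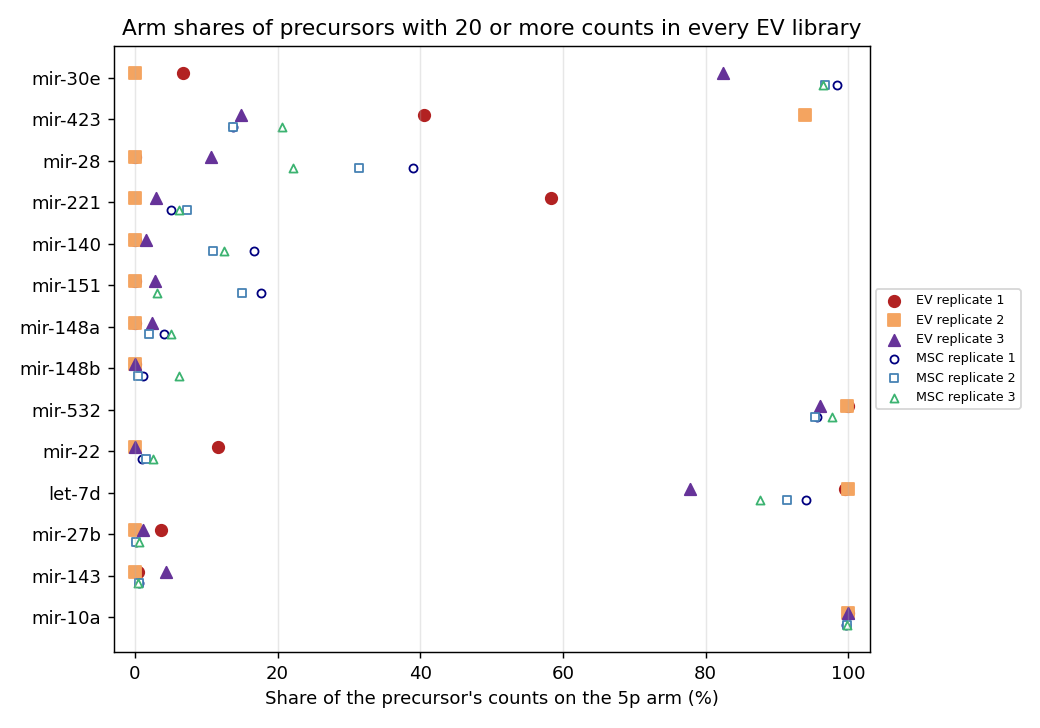
Share of each precursor's counts that fell on its 5p arm (percent) for the 14 precursors with at least 20 counts in every EV library, with EV libraries filled and MSC libraries open. mir-30e, mir-423 and mir-221 spread widely among EV libraries, from 0% to 82.4%, 14.8% to 93.9% and 0% to 58.4%, while their MSC libraries lie together.

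Against this spread, EVs were compared with their parent MSCs with the quasi-likelihood test of edgeR on TMM-scaled libraries. Of 220 miRNAs tested, 0 were higher and 0 lower by more than 2-fold at an adjusted p-value under 0.05, a share called of 0% in both directions. The unadjusted threshold of 0.05 was passed by 14 higher (6.36%) and 53 lower miRNAs (24.1%), and with the pig as a block by 3 and 13. Of the 53 lower miRNAs, 32 had 0 counts in all 3 EV libraries. For 31 the mean MSC share was under the mean EV limit of 0.0126%. Such a share is also under the limits of EV replicates 2 and 3, 0.0175% and 0.0197%, so a lower share was detectable at most in EV replicate 1. The fit without EV replicate 3 called 18 higher and 92 lower miRNAs after adjustment, and that without both libraries of pig 3, chosen after seeing the data, called 127 in all, of which 20 were higher. DESeq2 called 14 higher and 10 lower at an adjusted p-value under 0.05. TMM scaled EV replicate 3 by 3.37 and MSC replicate 3 by 0.311, against 0.778 to 1.2 for the rest, and the median log2 fold change over all tested miRNAs was -0.98 with TMM and -0.31 with DESeq2's size factors. Every EV share was above every MSC share for 14 of the 220 miRNAs (6.36%) and below for 51 (23.2%). Of these 51, 33 had 0 counts in all 3 EV libraries and 44 had 0 counts in at least 1, where a share up to the limit of that library cannot be told from 0.

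Among the 20 leading EV miRNAs, the unadjusted threshold was passed by 2 on the higher side and by 1 on the lower side. miR-148a-3p had a log2 fold change of 4.56 ± 1.63 (SE; edgeR, Benjamini-Hochberg adjusted p = 0.113) and was higher in 2 of 3 pigs after TMM scaling. miR-151-3p, which lies within the gene of focal adhesion kinase, took 1.74%, 7.67% and 0.454% of the EV libraries and 0.109%, 0.170% and 0.0754% of the MSC libraries. All EV shares of miR-151-3p were above all MSC shares, it was higher in 2 of 3 pigs after TMM scaling, and its log2 fold change was 4.67 ± 1.52 (SE; edgeR, adjusted p = 0.0948). miR-21 had a log2 fold change of -3.25 ± 1.23 (SE; edgeR, adjusted p = 0.127) and was lower in 3 of 3 pigs. The remaining 17 did not pass the unadjusted threshold. With the pig as a block, miR-148a-3p, miR-151-3p and miR-21 did not pass it either, and miR-148a-3p and miR-151-3p did not without EV replicate 2. miR-148a-3p also lost it without MSC replicate 3. miR-378, encoded within the gene of a metabolic coactivator and one of the miRNAs the study names, took 0.269%, 0.392% and 0.710% of the EV libraries and 0.0412%, 0.118% and 0.106% of the MSC libraries. All its EV shares were above all its MSC shares, but after TMM scaling its log2 fold change of 1.12 ± 1.04 (SE; edgeR, adjusted p = 0.527) did not pass.

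The largest differences that had the same direction in all 3 pigs were those of miR-127, miR-30e-3p, miR-370, miR-182 and miR-183 on the higher side, and for each of them all EV shares were above all MSC shares. miR-127 had a log2 fold change of 6.75 ± 2.08 (SE; edgeR, adjusted p = 0.0881), and its EV share exceeded the MSC share of the same pig by 4.07, 1250 and 62.1 times. miR-370, which is also encoded in the DLK1-DIO3 region, had 269, 54 and 10 EV counts and a log2 fold change of 4.55 ± 1.74 (SE; edgeR, adjusted p = 0.127). miR-136, the neighbour of miR-127, had 0 counts in each EV library, and its 14 to 41 counts in MSCs were themselves few. miR-30e-3p took 0.105%, 0.339% and 0.0592% in EVs, against 0.00276% to 0.00808% in MSCs, with a log2 fold change of 4.90 ± 1.43 (SE; edgeR, adjusted p = 0.0874). miR-182, which had 1853, 193 and 71 EV counts, had a log2 fold change of 3.74 ± 1.35 (SE; edgeR, adjusted p = 0.113). The differences of miR-127, miR-30e-3p, miR-182 and miR-183 passed the adjusted threshold without EV replicate 3, at adjusted p-values of 0.0394, 0.0153, 0.0453 and 0.0394 from edgeR. Without EV replicate 2 the log2 fold change was 2.96 for miR-127, 2.37 for miR-370, 2.28 for miR-182 and 2.58 for miR-183, and none of these 4 passed the unadjusted threshold. miR-30e-3p kept that threshold without any EV library but not without MSC replicate 1. Leaving out MSC replicate 1 also ended the unadjusted call of miR-370, miR-182 and miR-183, leaving out MSC replicate 3 ended it for the same 3, and leaving out MSC replicate 2 ended it for miR-370. With the pig as a block, miR-30e-3p and miR-370 did not pass it.

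On the lower side, the 5 largest were miR-7134-5p, miR-3613, miR-2320-5p, miR-1306-5p and miR-499-5p, each with 0 counts in all 3 EV libraries. miR-7134-5p took 0.0279% of the MSC libraries on average, at least 2.21-fold higher than the mean EV limit. The other 4 averaged from 0.00574% to 0.0134% in MSCs, of which miR-3613 and miR-2320-5p were at least 1.06-fold and 1.07-fold above that limit and the last 2 were under it. The limits of EV replicates 2 and 3, 0.0175% and 0.0197%, were above the mean MSC share of each of these 4, so a lower share was detectable for them only in EV replicate 1. miR-22-3p, chosen after its values were seen, had 482, 25 and 123 EV counts. It took 0.0797%, 0.146% and 0.809% of the EV libraries and 2.38%, 1.34% and 0.443% of the MSC libraries, with a log2 fold change of -3.12 ± 0.79 (SE; edgeR, adjusted p = 0.0838). It passed the adjusted threshold without EV replicate 3 (edgeR, adjusted p = 0.0153) and did not pass the unadjusted one without MSC replicate 1 or 2. In share, EV replicate 3 was above the MSC library of its pig for miR-22-3p, and only after TMM scaling was it lower in 3 of 3 pigs. miR-24-3p and miR-29a behaved likewise, at 0.0466%, 0.0175% and 0.546% and at 0.00777%, 0.0175% and 0.335% of the EV libraries.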

How the data were processed

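Small RNA was counted by the authors with CAP-miRSeq, and the submitters' processing notes name cutadapt 0.9.5, Bowtie 0.12.7, CASAVA 1.9 and the build susScr3 without saying which step each served. The small-RNA library kit was not given in the sources used here. The deposited expected counts, estimated by sharing reads among precursors, were whole numbers for 81.0% of values (tolerance 1e-09) and were rounded to whole counts. The authors also deposited CPM, which equalled each count scaled to its column sum to within 0.34. Of 326 mature miRNAs, 53 had several entries. The mRNA table was not used.

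Shares, Wilson intervals, Fisher exact tests and rarefaction used Python 3.11.15 with SciPy 1.17.1. EVs and MSCs were compared with edgeR 4.0.16 in R 4.3.3 (TMM, filterByExpr, quasi-likelihood test, Benjamini-Hochberg adjustment), without a block. A fold over 2 with an adjusted p-value under 0.05 was a call. The standard error is the log2 fold change divided by the square root of the F statistic. Pairing by pig comes from the labels. Deviations of same-pig libraries from their group means correlated at -0.189, 0.0136 and -0.0742. Those of libraries from different pigs correlated at -0.0228 to 0.135, so these values did not single out the same-pig pairs. Alternatives were DESeq2 1.42.0 and its size factors, limma 3.58.1 on log2(CPM + 1) and log2(CPM + 10), no filter, the pig as a block, summed entries, other count minimums, other ranks and each library left out. Fits were tested on simulated data.

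Named miRNAs are the 20 with the highest mean EV share, up to 5 per direction with the largest ratio in each pair of EV libraries (the lower share taken as no less than its limit of 3 counts, so that miRNAs with 1 count there rank lower), up to 5 per direction with the largest EV against MSC fold among those past the threshold in the same direction in 3 pigs, members of the family and marker lists with at least 10 EV counts, 4 miRNAs that the study names and the 5 precursors with the largest arm difference. These members and lists were chosen with earlier results of these data known. Precursor neighbours (within 10000 bases) were read from RefSeq for 217 of 241 precursors on another assembly, so no coordinates are given.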

Additional observations from a re-analysis of the deposited data

How the results depend on the processing

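The counts of EV against MSC calls moved with the setting. By adjusted p-value (0 higher and 0 lower by edgeR), DESeq2 gave 14 and 10, limma gave 36 lower on log2(CPM + 1) and 14 lower on log2(CPM + 10), and leaving out each library in turn gave from 0 to 18 higher and from 0 to 92 lower, the upper values without EV replicate 3. By unadjusted p-value (14 and 53), DESeq2 gave 30 and 29, limma gave 6 higher on log2(CPM + 1) and 7 and 31 on log2(CPM + 10), and single libraries left out gave from 5 to 25 higher and from 13 to 112 lower, again highest without EV replicate 3 and lowest without MSC replicate 1 or 2. With the pig as a block, 3 and 13 passed the unadjusted threshold and 0 the adjusted one, and the block moved no named log2 fold change past the adjusted threshold. Without both libraries of pig 3, a setting chosen after seeing the data, 127 passed the adjusted threshold, of which 20 were higher, and 24 and 119 the unadjusted one. The cause of these shifts was not tested. Of the miRNAs counted in any EV library, 32.8% were counted in all, and leaving out single EV libraries gave from 37.0% to 57.7%, with 52.0% without EV replicate 2 and 57.7% without EV replicate 3. Merging names with identical counts, a setting added after seeing the data, gave 33.0%. The calls between EV replicates 1 and 3 numbered 154 with no minimum above 1 count. The coefficient of variation over MSC libraries ran from 0.291, without MSC replicate 3, to 0.700. The other 64 comparisons of main results with an alternative stayed within 1.5 times or 1 SD. Among the log2 fold changes of 8 named miRNAs, 0 changed direction and 21 of 112 values under an alternative passed the adjusted threshold. Depth limits EV replicates 2 and 3 most, where a miRNA under a share of 0.0175% or 0.0197% can be missed.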
